A study of Mus musculus with 18 samples.

Results

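The comparison described here is of messenger RNA in sgNAT10 against WT TC1 cells. TC1 is a mouse tumour line that the labels give as fibrosarcoma, and sgNAT10 cells carry a guide RNA against Nat10. The 2 sgNAT10 libraries and the 2 WT libraries are 4 of the 18 samples of the series. The other samples are ribosome footprints of the same genotypes, mRNA of sgMyc cells (a guide RNA against Myc) with WT libraries of their own, and immunoprecipitated acetylated RNA, which was not used here. No drug, time course or host animal is named for any group, and no library carries a control guide, so carrying a guide at all and the loss of Nat10 cannot be told apart. Whether the edited line is a single clone or a pool is not given in the sources used here. The deposited table lists 17379 genes in FPKM, a count of fragments scaled to gene length and library size. Those that averaged 1 FPKM or more over the 4 libraries, 11735 genes, were compared.

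Nat10 encodes an acetyltransferase that places N4-acetylcytidine on ribosomal, transfer and messenger RNA, and it sits mostly in the nucleolus. Acetylation of messenger RNA has been tied to RNA stability and translation, and Nat10 is also needed to mature the small ribosomal subunit. The programmes below are ordered by the role of their genes: transcription factors, secreted signals and their receptors, surface and matrix proteins, the actin skeleton, signal dampers, and metabolism and housekeeping.

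Between 12145463 and 16002547 reads were recovered from the FPKM values of each library, which are lower bounds of its depth. Within a genotype the libraries lay close together. The common coefficient of variation between them, by edgeR on recovered reads, was 0.0256. It leaves out the variation that comes from counting reads, which adds to it most in genes with few reads. The labels do not say that they came from separate cultures, so p-values measure the spread between these libraries, which may be technical. A single noncoding RNA gene, Gm23935, took 23.1% and 35.8% of all FPKM in sgNAT10, against 22.6% and 22.0% in WT. Among the rest, mitochondrially encoded genes took 6.17% and 5.6% in sgNAT10 and 7.2% and 6.61% in WT. The median level of the genes compared was 6.901 and 6.892 FPKM in sgNAT10, against 6.595 and 6.570 FPKM in WT.

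The marker genes were those of mesenchymal cells. Of 12 fibroblast or mesenchymal markers 11 were listed, with a summed level of 644 and 615 FPKM in sgNAT10 against 316 and 327 FPKM in WT. Vim, an intermediate filament gene, made up most of it with 444 and 421 FPKM in the sgNAT10 libraries and 248 and 255 FPKM in the WT libraries. The markers of collagen-making fibroblasts did not go one way: Col1a2 had 41.7 and 42.1 FPKM in sgNAT10, against 12.7 and 13.5 FPKM in WT, Col3a1 had 3.18 and 3.66 against 4.29 and 4.34 FPKM, sgNAT10 before WT (a call lost without sgNAT10 replicate 1 or either WT library), and Col1a1, Dcn and Lum were under 0.3 FPKM in every library or not listed. Pdgfra, a growth factor receptor of such cells, had 7.94 and 7.89 FPKM in sgNAT10, against 0.993 and 0.929 FPKM in WT, and its relative Pdgfrb had 1.63 and 1.64 FPKM in sgNAT10, against 2.77 and 2.49 FPKM in WT. Only 3 of 12 epithelial markers were listed, with sums of 0.131 and 0.125 FPKM in sgNAT10 and 1.01 and 1.04 FPKM in WT. The 2 listed markers of lung epithelium, of 9, summed to 0.542 and 0.467 FPKM in sgNAT10 and 0.487 and 0.428 FPKM in WT. Markers of T cells, B cells and endothelium stayed under 2 FPKM in sum in each library, and the leukocyte gene Ptprc was not listed. Of the 3 listed macrophage markers, of 8, Cd14 had 10.7 and 8.75 FPKM in sgNAT10, against 2.41 and 2.15 FPKM in WT. Cd68 had 1.02 and 1.48 FPKM in the sgNAT10 libraries and 0.944 and 1.43 FPKM in the WT libraries, and Csf1r had 1.901 and 1.98 FPKM in the sgNAT10 libraries and 2.14 and 2.42 FPKM in the WT libraries. The defining macrophage genes Adgre1, Lyz2 and Itgam were not listed. In bulk RNA, more cells of a kind and more RNA per cell cannot be told apart.

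Differences were tested with limma on log2(FPKM + 1), with Benjamini-Hochberg adjustment over all genes compared and a threshold of 0.05. Of the 11735 genes 7431 passed (63.3%), 3960 of them higher in sgNAT10 (33.7%) and 3471 lower (29.6%). Passing with a change of at least 2-fold was much rarer, with 850 genes (7.24%): 553 higher (4.71%) and 297 lower (2.53%). The libraries of the genotypes did not overlap in 82.3% of the genes. These shares are the background for every count of list members below. Where the text calls a gene 2-fold changed, it passed the test and its log2 fold change, sgNAT10 over WT, was at least 1 in size on the scale of FPKM + 1, which understates the change of genes at low levels. The share of 2-fold genes was 8.04% among genes with a mean of 1 to 5 FPKM and 5.19% among the 308 genes at 100 FPKM or above.

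The guide's target was lower in sgNAT10. Nat10 had 3.59 and 3.95 FPKM in sgNAT10, against 5.36 and 5.302 FPKM in WT (log2 fold change -0.41, SE 0.0593, adjusted p = 0.00266 by limma), so its mRNA was reduced and still present. Its footprints were 8.33 and 6.601 FPKM in sgNAT10, against 11.9 and 17.4 FPKM in WT.

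The 12 largest rises and the 12 largest falls ran from secreted growth signals and muscle-type proteins on one side to a retinoid carrier, a matrix proteoglycan and membrane proteins on the other. The rises lay between 3.57 and 5.56 on the log2 scale, the falls between 3.61 and 7.19 in size, and the highest adjusted p among them was 1.7e-05 by limma. Grem1, whose secreted product blocks bone morphogenetic proteins, led the rises with 168 and 172 FPKM in sgNAT10, against 2.23 and 3.05 FPKM in WT. Crabp1, which binds retinoic acid in the cytoplasm, led the falls with 0.651 and 0.464 FPKM in the sgNAT10 libraries and 229.6 and 223 FPKM in the WT libraries. Recovered reads of Grem1 were 12033 and 11484 in sgNAT10 against 203 and 232 in WT. Those of Crabp1 were 9 and 6 in sgNAT10 against 4035 and 3284 in WT. Between 250 bases before and 50 after the start of each gene, the promoters of the genes at either end read as follows in RefSeq (GRCm38.p6, the same mouse assembly as mm10), with every CG in capitals since CpG density sets promoter classes apart.
Grem1, chr2:113758599-113758898, minus strand: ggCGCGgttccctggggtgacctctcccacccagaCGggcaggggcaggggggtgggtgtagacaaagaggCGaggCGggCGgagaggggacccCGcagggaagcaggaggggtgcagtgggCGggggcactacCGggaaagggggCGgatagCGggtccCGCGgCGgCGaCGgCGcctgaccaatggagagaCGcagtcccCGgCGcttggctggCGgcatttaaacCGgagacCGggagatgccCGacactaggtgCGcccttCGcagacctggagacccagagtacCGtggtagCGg
Crabp1, chr9:54764498-54764797, plus strand: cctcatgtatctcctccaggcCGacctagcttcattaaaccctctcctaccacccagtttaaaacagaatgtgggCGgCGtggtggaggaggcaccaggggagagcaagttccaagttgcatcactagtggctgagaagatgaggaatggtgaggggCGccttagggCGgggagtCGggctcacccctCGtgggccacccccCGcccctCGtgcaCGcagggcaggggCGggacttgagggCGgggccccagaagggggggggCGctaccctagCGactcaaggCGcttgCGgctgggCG
The Grem1 window holds 28 CG pairs, a number reached by 14.2% of 32851 such windows, and the Crabp1 window holds 17, reached by 31.4%.

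Among the other large rises, Fgf7 had 77.9 and 73.9 FPKM in sgNAT10, against 4.53 and 5.01 FPKM in WT, and Fgf10 had 16.2 and 15.8 FPKM in sgNAT10, against 0.357 and 0.4497 FPKM in WT; both are secreted by mesenchyme and signal to epithelium. Il1rl1, which encodes the alarmin receptor ST2, had 87.7 and 85.4 FPKM in the sgNAT10 libraries and 3.65 and 4.12 FPKM in the WT libraries. All sgNAT10 libraries stood far above all WT libraries in each of them. Myl9, a regulatory light chain of myosin, had 19.1 and 19.9 FPKM in sgNAT10, against 0.5499 and 0.7498 FPKM in WT, and Fhl1, a LIM-domain protein of striated muscle, had 14.9 and 14.5 FPKM in sgNAT10, against 0.0492 and 0.117 FPKM in WT. Cavin2, a coat protein of caveolae, was the most abundant of the 12 with 202 and 203 FPKM in the sgNAT10 libraries and 16.2 and 16.2 FPKM in the WT libraries. The remaining 6 were Sgk1, Cryab, Ptgs2, Thy1, Sod3 and Grem1, with log2 fold changes from 4.27 (Sod3) to 5.56 (Grem1).

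**Figure D1:**
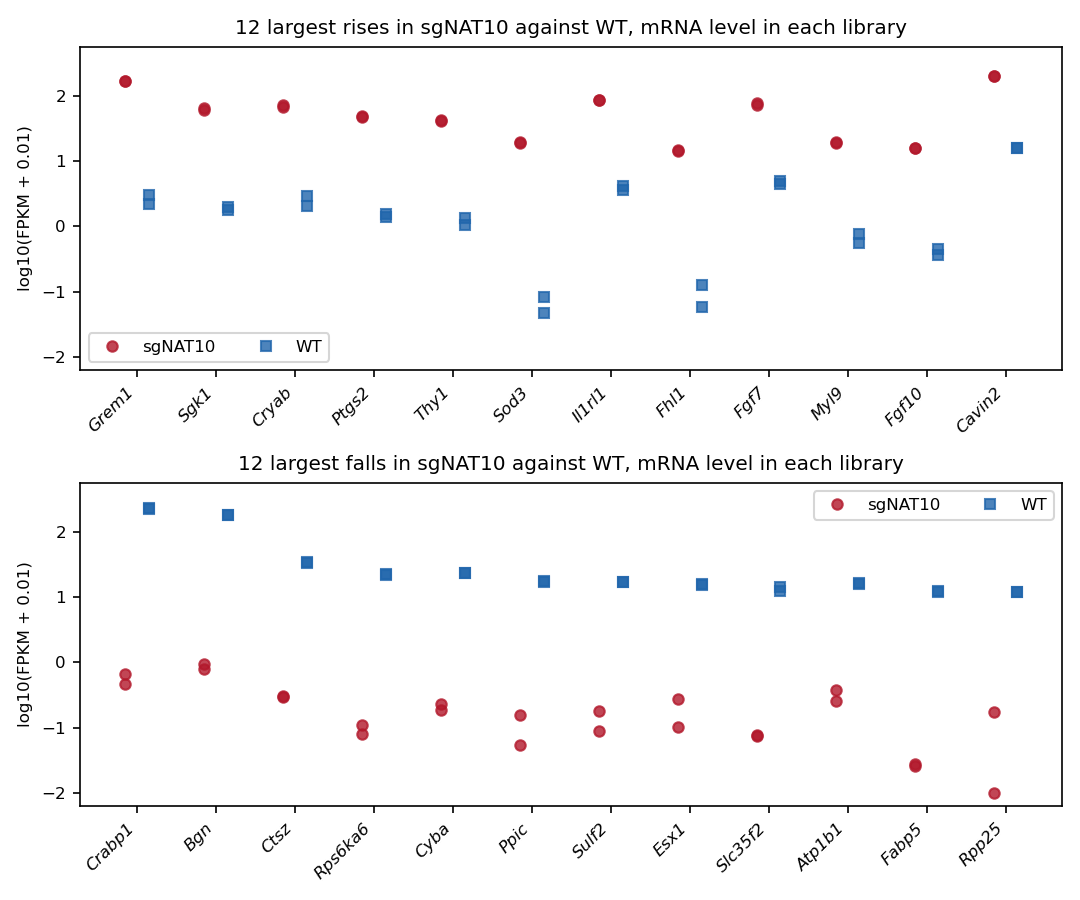
Level of the 12 largest rises (top) and the 12 largest falls (bottom) in each of the 4 mRNA libraries, as log10(FPKM + 0.01) on the vertical axis; red circles are sgNAT10 and blue squares WT. The libraries of a genotype lie close to each other and the genotypes are apart in each gene, and the falls end near 0 FPKM, where Rpp25 is at 0 in an sgNAT10 library.

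The largest falls were close to complete. Bgn, the matrix proteoglycan biglycan, had 0.952 and 0.793 FPKM in sgNAT10, against 179 and 181 FPKM in WT, and Sulf2, a sulfatase that trims heparan sulfate outside the cell, had 0.0791 and 0.169 FPKM in sgNAT10, against 16.8 and 17.1 FPKM in WT. Fabp5, a fatty acid carrier, had 0.0163 and 0.0174 FPKM in the sgNAT10 libraries and 12.5 and 12.01 FPKM in the WT libraries. Its recovered reads were 1 in each sgNAT10 library against 974 and 787 in WT. Atp1b1, a subunit of the sodium and potassium pump, had 0.245 and 0.362 FPKM in sgNAT10, against 16.02 and 16.3 FPKM in WT. Rpp25, a protein of the ribonuclease P and MRP particles that process transfer and ribosomal RNA, had 0.163 and 0 FPKM in sgNAT10, against 12.2 and 12.1 FPKM in WT. Slc35f2, a membrane transporter, had 0.0641 and 0.0685 FPKM in the sgNAT10 libraries and 14.1 and 12.3 FPKM in the WT libraries. In the sgNAT10 libraries 5 of the 12 genes (Cyba, Ppic, Slc35f2, Fabp5 and Rpp25) had at most 4 recovered reads each. Crabp1, Bgn, Ctsz, Rps6ka6, Cyba, Ppic, Sulf2, Esx1, Slc35f2, Atp1b1, Fabp5 and Rpp25 were all lower in both sgNAT10 libraries than in either WT library.

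Among transcription factors 2-fold rises outnumbered 2-fold falls, as they did over all genes compared (4.71% higher, 2.53% lower). Of 604 tested members of the transcription factor lists, 226 rose and 146 fell, and 40 were 2-fold higher and 15 were 2-fold lower (9.11% 2-fold, against 7.24% of all genes). Among 797 tested genes that carry a transcription factor family in the deposited annotation, 7.15% were 2-fold changed, which is near the background. The families differed in their 2-fold shares, from 30% of the 10 SOX and TCF/LEF factors to 0% in several, the 15 HOX genes among them. The share was 22.6% of the 31 bZIP factors. It was 3.14% of the 255 Zfp-type zinc fingers, of which 4 were 2-fold higher and 4 were 2-fold lower.

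Vgll3, a cofactor of TEAD proteins, had 26.9 and 28.1 FPKM in sgNAT10, against 2.58 and 2.44 FPKM in WT, and Klf4, a zinc finger factor of growth arrest and reprogramming, had 40.8 and 42.4 FPKM in sgNAT10, against 5.04 and 5.66 FPKM in WT. Prrx2, a homeobox factor of limb and skin mesenchyme, had 21.5 and 22.7 FPKM in the sgNAT10 libraries and 2.7 and 2.61 FPKM in the WT libraries, and its relative Prrx1 had 24.4 and 24.9 FPKM in the sgNAT10 libraries and 10.4 and 10.5 FPKM in the WT libraries. Tbx5, a T-box factor of forelimb and heart, had 4.77 and 4.71 FPKM in sgNAT10, against 0 and 0.0233 FPKM in WT. These values did not overlap between genotypes, and Tbx5 was at or close to 0 in WT. Of 38 tested homeobox factors outside the HOX clusters, 20 rose and 10 fell, with 8 that were 2-fold higher (among them Barx1, 1.71, and Nkx2-5, 1.62) and 3 that were 2-fold lower. The 15 tested HOX genes held no 2-fold change, with 4 higher (2 without WT replicate 2) and 5 lower. Their log2 fold changes past the test ran from -0.58 (Hoxb9) to 0.29 (Hoxa7).

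Leucine zipper factors rose in number: 16 of 31 tested bZIP factors were higher, 6 lower, 7 of them 2-fold higher and none 2-fold lower. Jun, the core of the AP-1 complex, was the second most abundant of these 7 with 86.3 and 87.9 FPKM in sgNAT10, against 23.7 and 24.9 FPKM in WT (log2 fold change 1.80, SE 0.0362, adjusted p = 9.41e-06 by limma). Atf5, a stress-response factor, was the most abundant with 108 and 104 FPKM in the sgNAT10 libraries and 41.8 and 45.1 FPKM in the WT libraries. Cebpd had 17.6 and 18.9 against 3.4 and 3.84 FPKM and Cebpb had 54.4 and 56.9 against 23.4 and 25.2 FPKM, sgNAT10 given before WT; both act in inflammation and fat cell formation. The others were Hlf (2.39), Fosl2 (1.26) and Nfil3 (1.00). Junb, an AP-1 partner that can oppose Jun, went the other way with 12.4 and 14.01 FPKM in sgNAT10, against 20.6 and 21.8 FPKM in WT (log2 fold change -0.65).

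Forkhead factors were higher in 10 of 19 and lower in 4, nuclear receptors in 10 and 5 of 19. Foxl1, a factor of gut mesenchyme, had 16.9 and 16.2 FPKM in sgNAT10, against 2.11 and 2.64 FPKM in WT, and Foxf1, another mesenchymal forkhead gene, had 18.02 and 19.2 FPKM in sgNAT10, against 8.203 and 7.801 FPKM in WT. Of the nuclear receptors, the retinoic acid receptor gene Rarg had 26.5 and 28.3 FPKM in sgNAT10, against 7.52 and 7.25 FPKM in WT, while Rara, which encodes another receptor of the same ligand, had 7.698 and 7.0 FPKM in sgNAT10, against 13.2 and 13.7 FPKM in WT. The genotypes were apart in both genes, in opposite directions. The orphan receptors Nr2f2 (1.69) and Nr2f1 (1.13) rose 2-fold. Among the bHLH factors, Ahr, the receptor of aryl hydrocarbons, had 6.05 and 5.65 FPKM in sgNAT10, against 1.18 and 1.12 FPKM in WT, and Hif1a, the oxygen-regulated factor, had 19.7 and 20.4 FPKM in sgNAT10, against 27.6 and 26.4 FPKM in WT.

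Zinc finger and high mobility group factors moved both ways. Of 29 tested factors of the EGR, GLI, SNAI, ZIC and IKAROS kind 11 rose and 5 fell, or 10 and 9 after scaling to equal medians. Among them Snai2, a repressor of epithelial genes, had 16.2 and 16.4 FPKM in sgNAT10, against 5.06 and 5.95 FPKM in WT, and Egr1, an immediate early factor, had 6.72 and 6.55 FPKM in sgNAT10, against 1.61 and 1.72 FPKM in WT. Mecom, a factor of blood stem cells, had 6.61 and 6.55 FPKM in the sgNAT10 libraries and 0.929 and 0.933 FPKM in the WT libraries, and Osr1, a factor of kidney and connective tissue progenitors, had 19.7 and 21.2 FPKM in the sgNAT10 libraries and 5.81 and 5.67 FPKM in the WT libraries. Gli2, the main activator of Hedgehog targets, had 0.144 and 0.0812 FPKM in the sgNAT10 libraries and 2.96 and 3.03 FPKM in the WT libraries. Sox2 and Sox9 moved apart: Sox2, a factor of stem and neural progenitor cells, had 10.4 and 10.8 FPKM in sgNAT10, against 2.796 and 3.39 FPKM in WT, and Sox9, a factor of cartilage and stem cells, had 4.07 and 4.197 FPKM in sgNAT10, against 15.4 and 17.2 FPKM in WT. Klf6 had 9.29 and 8.86 FPKM in the sgNAT10 libraries and 23.2 and 22.2 FPKM in the WT libraries, the reverse of Klf4.

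**Figure D2:**
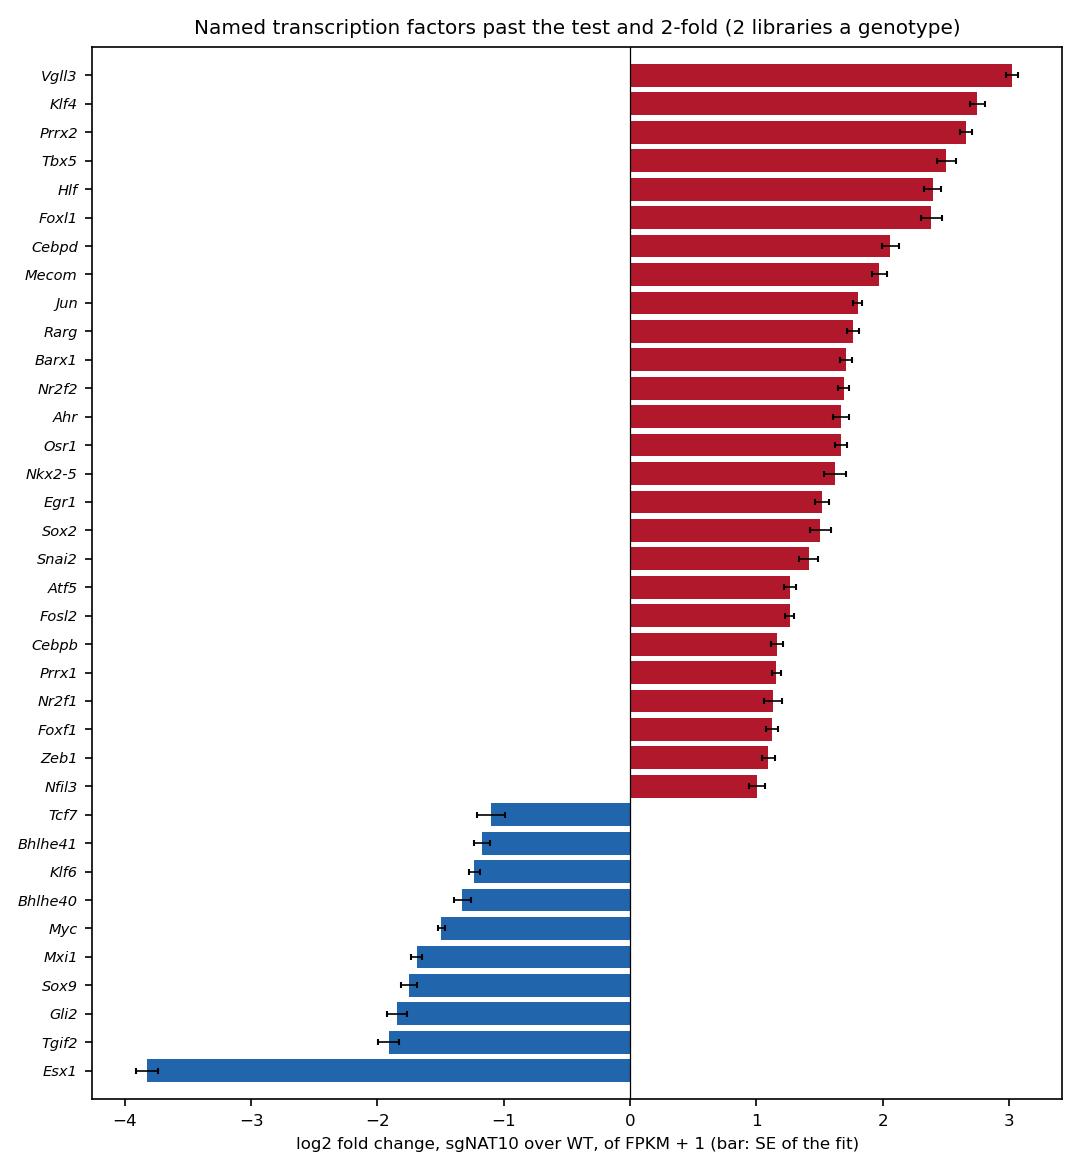
Log2 fold change of FPKM + 1, sgNAT10 over WT (horizontal axis), of the 36 transcription factors past the test and 2-fold that the text names, one per row in order of their change; bars reach the estimate and whiskers are the SE of the limma fit. The 26 factors in red rose, led by Vgll3 and Klf4, and the 10 in blue fell, led by Esx1.

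Factors with lower mRNA included the MYC network and a placental homeobox gene. Of 9 tested bHLH factors of the MYC network 6 fell and 1 rose. Myc had 39.98 and 40.9 against 115 and 117 FPKM and Mxi1, a repressor that competes for the shared partner Max, had 5.18 and 5.42 against 19.1 and 19.5 FPKM, sgNAT10 before WT in each. Max itself had 15.4 and 15.4 against 22.2 and 22.5 FPKM. Esx1, an X-linked homeobox gene of the placenta, had 0.263 and 0.0937 FPKM in sgNAT10, against 15.4 and 15.9 FPKM in WT. Tgif2, a repressor in TGF-beta signalling, had 2.18 and 1.76 FPKM in sgNAT10, against 10.4 and 9.85 FPKM in WT. Bhlhe40 (-1.33) and Bhlhe41 (-1.17), repressors of the circadian clock, both fell. Factors of interferon signalling leaned down without a 2-fold change: of 8 tested STAT and IRF factors none rose and 4 fell, Irf1 most with 3.55 and 3.65 FPKM in sgNAT10, against 7.08 and 7.59 FPKM in WT.

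The letters CACGTG, the E-box that MYC and Max bind, were looked for on both strands (they read the same on each) in the promoter windows of Klf4 and Esx1, a zinc finger factor with a large rise and the factor with the largest fall. Both windows hold it, in capitals below, at position -182 in Klf4 and -75 in Esx1, counted from the gene's start. The windows of Grem1, Crabp1 and Bgn were searched in the same way and do not hold it. An AP-1 site (TGACTCA) and a TATA box (TATAAA) were also looked for in all of these windows, and none holds either. The genes were picked after their values were seen.
Klf4, chr4:55532426-55532725, minus strand: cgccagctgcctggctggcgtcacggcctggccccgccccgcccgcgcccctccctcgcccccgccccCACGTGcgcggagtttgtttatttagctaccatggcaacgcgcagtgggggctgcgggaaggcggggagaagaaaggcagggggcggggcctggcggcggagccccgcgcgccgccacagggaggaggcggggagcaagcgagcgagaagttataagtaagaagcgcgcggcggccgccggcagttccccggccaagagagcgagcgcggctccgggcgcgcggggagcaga
Esx1, chrX:137120277-137120576, minus strand: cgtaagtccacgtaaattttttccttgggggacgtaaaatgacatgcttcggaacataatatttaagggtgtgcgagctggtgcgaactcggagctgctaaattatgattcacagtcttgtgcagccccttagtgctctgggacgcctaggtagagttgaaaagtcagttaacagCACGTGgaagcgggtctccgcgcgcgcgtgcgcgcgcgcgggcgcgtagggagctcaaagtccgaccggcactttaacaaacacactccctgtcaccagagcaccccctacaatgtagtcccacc
Of all 32851 RefSeq windows 7.15% hold the same letters, so the match is a description and says nothing of binding. Klf4 was higher and Esx1 lower in sgNAT10.

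Factors that read cell shape and TGF-beta signals rose in smaller steps. None of 18 tested RUNX, TEAD, MEF2 and SRF factors and cofactors fell and 12 rose, with Vgll3 the one past 2-fold. Tead1, a partner of the YAP and TAZ coactivators, had 30.2 and 29.8 FPKM in sgNAT10, against 21.3 and 21.1 FPKM in WT, and Wwtr1, which encodes TAZ, had 27.6 and 28.9 FPKM in sgNAT10, against 19.8 and 18.6 FPKM in WT. Of 7 tested SMAD factors 5 rose and none fell, Smad3 most with 10.3 and 10.7 FPKM in sgNAT10, against 4.98 and 5.197 FPKM in WT; 1 was called lower after scaling to equal medians. Targets assigned to these factors did not move as a block. Of 21 tested YAP and TEAD targets 12 rose and 8 fell. Thus F3, which starts blood clotting, had 20.1 and 18.7 against 6.56 and 6.62 FPKM, and Ankrd1, a muscle stress protein often read as a YAP target, had 58.4 and 55.8 against 106 and 104 FPKM, sgNAT10 before WT. Of 14 tested TGF-beta targets 8 rose and 2 fell, or 3 and 4 fell after scaling to equal quantiles and medians. Thbs1, a matrix protein that activates latent TGF-beta, had 106 and 98.03 FPKM in sgNAT10, against 8.42 and 8.903 FPKM in WT.

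Of 16 tested interleukins and their receptors 13 rose and none fell (1 fell with edgeR on recovered reads), with 8 of them 2-fold higher and a median log2 fold change of 0.99, against 0.01 over all genes. Il4ra, which receives interleukins of the type that drives allergy, had 7.65 and 8.33 FPKM in sgNAT10, against 1.704 and 1.64 FPKM in WT, and its partner chain Il13ra1 had 8.25 and 9.08 FPKM in sgNAT10, against 3.34 and 3.37 FPKM in WT. Il6st, the shared chain gp130, had 20.99 and 20.3 FPKM in the sgNAT10 libraries and 8.998 and 9.07 FPKM in the WT libraries, and Osmr, which pairs with it for oncostatin M, had 2.91 and 2.74 FPKM in the sgNAT10 libraries and 0.629 and 0.589 FPKM in the WT libraries. Il1rn, a secreted antagonist of the interleukin receptor encoded by Il1r1, had 2.58 and 2.21 FPKM in sgNAT10, against 0.00825 and 0.0197 FPKM in WT, and Il1r1 itself had 8.01 and 8.35 FPKM in sgNAT10, against 2.805 and 2.62 FPKM in WT. In each of these genes both sgNAT10 libraries lay above both WT libraries. Il34, Il1rap and Il17ra did not pass, with log2 fold changes of -0.08, -0.17 and 0.19.

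Of 18 tested genes of the WNT list 8 rose and 4 fell, 6 of them 2-fold higher. The split was 7 higher and 6 lower after scaling to equal quantiles, and 2 higher and 2 lower with a minimum mean of 5 FPKM, where the median log2 fold change of the WNT pathway and targets was -0.09, against 0.09 as reported. Dkk2, a secreted modulator of the WNT coreceptors, had 7.93 and 8.58 FPKM in sgNAT10, against 0.172 and 0.176 FPKM in WT, and Wnt5a, a ligand of the non-canonical branch, had 3.55 and 3.57 FPKM in sgNAT10, against 0.373 and 0.404 FPKM in WT. The receptor genes Fzd8 and Fzd5 had 3.04 and 2.82 against 0.0682 and 0.0163 FPKM and 8.23 and 7.56 against 2.099 and 2.21 FPKM, sgNAT10 before WT. Tcf7, a nuclear effector of the pathway, had 4.001 and 2.998 FPKM in the sgNAT10 libraries and 8.57 and 8.61 FPKM in the WT libraries, and was the 2-fold lower member.

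Of 16 tested genes of the bone morphogenetic protein pathway 11 rose and 2 fell. Besides Grem1, the antagonist Fst had 70.3 and 67.9 FPKM in sgNAT10, against 12.8 and 12.4 FPKM in WT, and the ligand Bmp4 had 13.4 and 14.3 FPKM in sgNAT10, against 3.17 and 3.003 FPKM in WT. Id genes, the usual readout of this pathway, did not move as one: Id2 had 14.3 and 13.1 against 6.81 and 6.45 FPKM, Id3 had 43.1 and 41.3 against 33.4 and 32.1 FPKM and Id1 had 35.7 and 33.8 against 41.2 and 42.9 FPKM, sgNAT10 before WT. Id2 and Id3 rose and Id1 fell. In the Hedgehog pathway, with 2 of 7 genes higher and 3 lower, the coreceptor Gas1 had 44.2 and 47.7 FPKM in sgNAT10, against 9.604 and 9.32 FPKM in WT, and the receptor and target Ptch1 had 2.92 and 3.08 FPKM in sgNAT10, against 4.75 and 4.42 FPKM in WT. The Notch list had 3 of 9 higher and 2 lower, and Mfng, a sugar transferase that modifies Notch receptors, had 0.143 and 0.415 FPKM in sgNAT10, against 8.59 and 8.73 FPKM in WT.

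Growth factor carriers and vessel signals also moved. Of 9 tested genes of the insulin-like growth factor list 5 rose and 3 fell, with Igfbp6 at 49.5 and 53.1 FPKM in sgNAT10, against 11.4 and 11.3 FPKM in WT, and Irs1, an adaptor of the insulin receptor, at 7.76 and 7.92 FPKM in the sgNAT10 libraries and 2.68 and 2.58 FPKM in the WT libraries. The vessel list was split: Vegfd, a ligand of lymphatic growth, had 22.4 and 21.8 FPKM in sgNAT10, against 5.12 and 5.09 FPKM in WT, while Vegfa had 17.1 and 18.1 FPKM in sgNAT10, against 27.5 and 29.4 FPKM in WT, and Pgf, the placental relative, had 2.06 and 1.96 FPKM in sgNAT10, against 8.14 and 9.53 FPKM in WT. Vegfd rose and the other two fell.

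Guidance cues followed the same upward lean. All 12 tested semaphorins, plexins and neuropilins passed the test, 9 higher and 3 lower. Sema3a, a secreted repellent of axons and migrating cells, had 14.7 and 13.8 FPKM in sgNAT10, against 0.352 and 0.4201 FPKM in WT, and its receptor Nrp1 had 12.04 and 11.3 FPKM in sgNAT10, against 0.606 and 0.757 FPKM in WT. Sema5a had 5.65 and 5.78 FPKM in the sgNAT10 libraries and 0.972 and 0.953 FPKM in the WT libraries. Both ligand and receptor genes were thus higher in both sgNAT10 libraries. Among ephrins and their receptors 6 of 11 rose and 2 fell: Efnb2, a ligand of arteries and tissue borders, had 22.1 and 21.8 FPKM in sgNAT10, against 3.95 and 3.77 FPKM in WT, and Efna3 had 1.22 and 1.02 FPKM in sgNAT10, against 3.38 and 3.27 FPKM in WT. Slit2, another repellent, had 3.93 and 4.101 FPKM in the sgNAT10 libraries and 0.725 and 0.766 FPKM in the WT libraries.

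**Figure D3:**
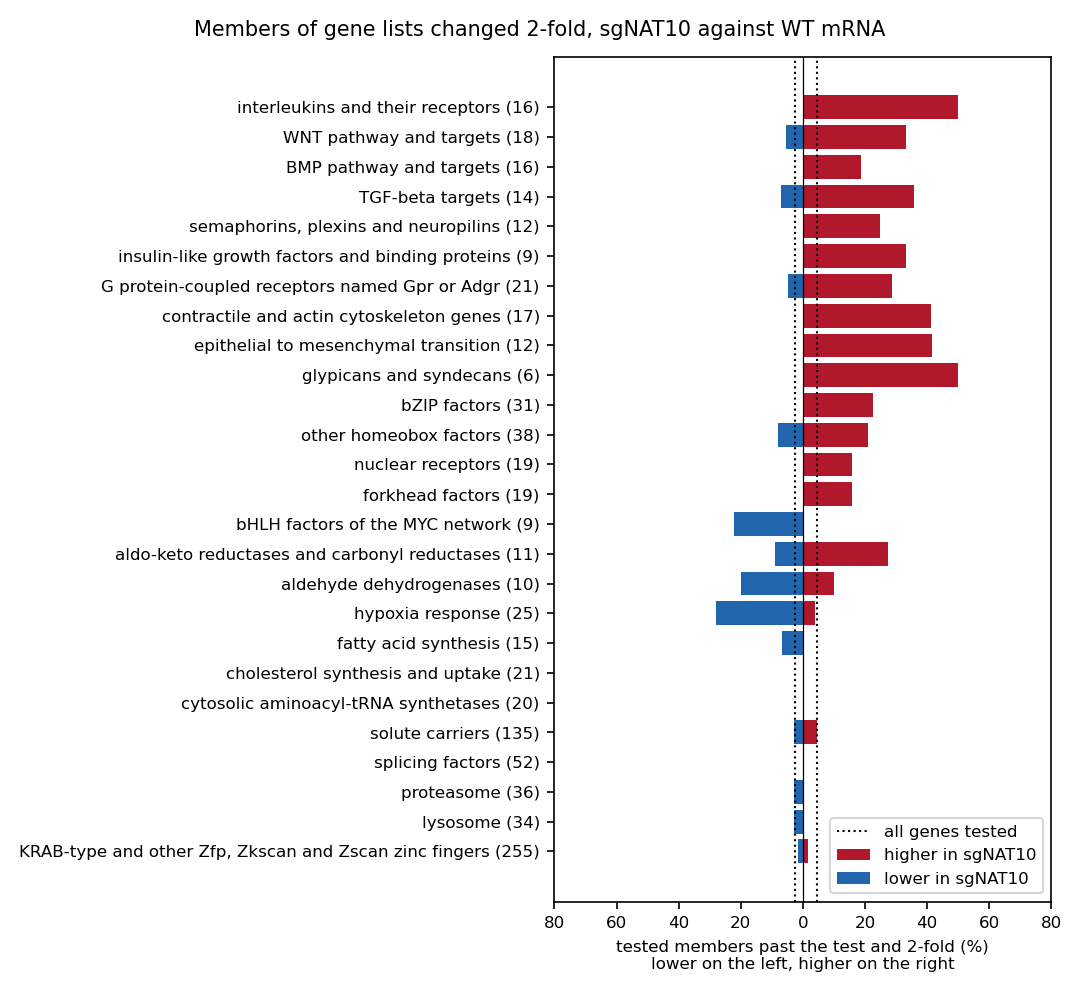
Share of the tested members of 26 gene lists, in percent on the horizontal axis, that passed the test with a change of at least 2-fold, higher in sgNAT10 to the right in red and lower to the left in blue; the number tested stands beside each name and dotted lines mark all 11735 genes (4.71% higher, 2.53% lower). Interleukins and their receptors and the glypicans and syndecans reach 50%, while splicing factors, cholesterol genes and aminoacyl-tRNA synthetases have no 2-fold member.

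Surface and matrix proteins changed by family. Both tested cadherins rose, Cdh26 with 11.2 and 9.69 FPKM in sgNAT10, against 0.349 and 0.271 FPKM in WT, and Cdh2, the N-cadherin of mesenchymal cells, with 19.7 and 19.4 FPKM in sgNAT10, against 8.62 and 8.65 FPKM in WT. Of 4 tested protocadherins 3 rose, all 2-fold: Pcdh19 (2.80), Pcdh7 (1.65) and Pcdh18 (1.63). Of 6 tested glypicans and syndecans, which carry heparan sulfate chains and hold growth factors at the surface, 5 rose and none fell (1 fell with edgeR on recovered reads). Gpc1 had 53.2 and 52.5 FPKM in the sgNAT10 libraries and 13.6 and 14.4 FPKM in the WT libraries, and Sdc2 had 30.6 and 29.1 FPKM in the sgNAT10 libraries and 12.1 and 11.1 FPKM in the WT libraries. The integrins were split, with 3 of 7 higher and 2 lower: Itga6, a laminin receptor chain, had 0.649 and 0.639 FPKM in sgNAT10, against 6.77 and 6.74 FPKM in WT, and Itgb7 had 5.31 and 5.26 FPKM in sgNAT10, against 1.81 and 1.85 FPKM in WT. Lama5, a laminin chain that such receptors bind, had 4.86 and 4.34 FPKM in sgNAT10, against 17.97 and 18.1 FPKM in WT.

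The 12 tested genes of epithelial to mesenchymal transition held 9 that rose and none that fell (median log2 fold change 0.83); scaling to equal quantiles or medians gave 1 that fell. Besides Snai2 and Cdh2, the matrix protein fibronectin (Fn1) had 68.3 and 64.1 FPKM in sgNAT10, against 21.9 and 22.5 FPKM in WT, and the repressor Zeb1 had 7.89 and 8.18 FPKM in sgNAT10, against 3.17 and 3.28 FPKM in WT. Zeb2, a relative, had 3.69 and 3.71 against 3.43 and 3.59 FPKM, sgNAT10 before WT, and did not pass. The epithelial genes of the marker list were near 0 FPKM in both genotypes, so the list was measured on its mesenchymal side. The summed mesenchymal markers given above, which share Fn1 and Cdh2 with it, were also higher in sgNAT10.

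Matrix enzymes and small binding proteins added to this. Of 11 tested lysyl oxidases and collagen hydroxylases 8 rose and 2 fell. Loxl3, which crosslinks collagen and elastin, had 9.82 and 9.41 FPKM in sgNAT10, against 4.03 and 3.82 FPKM in WT, while the collagen hydroxylase P4ha2 had 8.14 and 7.89 FPKM in sgNAT10, against 15.3 and 15.1 FPKM in WT. Of 6 tested S100 calcium-binding proteins 5 rose and none fell, S100a13 most with 16.96 and 15.6 FPKM in sgNAT10, against 4.28 and 4.49 FPKM in WT. S100a4 had a log2 fold change of -0.16 and passed as lower only without WT replicate 1, after scaling to equal medians or quantiles, or with a minimum mean of 5 FPKM. The galectin gene Lgals3 had 180.4 and 177 FPKM in sgNAT10, against 50.5 and 54.9 FPKM in WT, and Lgals9 had 9.07 and 9.83 FPKM in sgNAT10, against 19.4 and 20.6 FPKM in WT. Lgals3 was higher and Lgals9 lower, with no overlap in either. Adamts14, a protease that trims procollagen, had 0 and 0.0119 FPKM in the sgNAT10 libraries and 4.82 and 5.07 FPKM in the WT libraries.

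Extracellular proteases and complement added further members. Of 13 tested ADAM and ADAMTS proteases 5 rose and 4 fell, or 2 without either WT library. Adam19 had 2.15 and 2.26 FPKM in sgNAT10, against 0.212 and 0.314 FPKM in WT, and Adamts5, which cleaves aggrecan, had 3.03 and 3.58 FPKM in sgNAT10, against 1.09 and 1.16 FPKM in WT. Adam8 had 0.288 and 0.281 FPKM in the sgNAT10 libraries and 2.04 and 1.75 FPKM in the WT libraries and, like Adamts14, was 2-fold lower. All 3 tested complement genes rose. C3, the hub of the cascade, had 5.94 and 5.68 FPKM in sgNAT10, against 0.976 and 1.397 FPKM in WT, and Masp1, a protease of the lectin branch, had 4.24 and 3.87 FPKM in sgNAT10, against 0.713 and 0.554 FPKM in WT. Tetraspanins, which organise surface proteins, had 8 of 15 higher and 2 lower: Tspan11 had 3.19 and 3.11 against 0.326 and 0.388 FPKM and Tspan5 had 13.3 and 13.3 against 4.39 and 4.48 FPKM, sgNAT10 before WT, in contrast to Tspan6 (-3.23 on the log2 scale).

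Most of the contractile list rose: 12 of 17 tested genes were higher, 1 was lower (2 after scaling to equal quantiles or medians) and 7 were 2-fold higher, with a median log2 fold change of 0.82. Vcl, which links actin to adhesions, had 33.4 and 33.99 FPKM in sgNAT10, against 11.5 and 11.8 FPKM in WT, and Cnn2, a calponin, had 156 and 158 FPKM in sgNAT10, against 60.4 and 61.8 FPKM in WT. Actg2, an actin of smooth muscle, had 3.84 and 2.87 FPKM in the sgNAT10 libraries and 0.352 and 0.245 FPKM in the WT libraries. Smtn, a smooth muscle protein, was the exception with 20.5 and 20.8 FPKM in sgNAT10, against 35.9 and 39.5 FPKM in WT. Tagln, a standard marker of smooth muscle, was close to 1 FPKM throughout with 0.934 and 1.12 against 1.12 and 1.23 FPKM, sgNAT10 before WT, and did not pass (log2 fold change -0.10). Acta2, Cnn1 and Des were at or below 1.3 FPKM in every library, and the 4 listed smooth muscle markers summed to 2.11 and 2.03 FPKM in sgNAT10, against 3.61 and 3.44 FPKM in WT. Among genes with a mean of 100 FPKM or more, the actin regulators Tpm4 (430.1 and 436 against 189.6 and 184 FPKM), Cap1 (159 and 157 against 67.8 and 69.1 FPKM), Dstn (181 and 183 against 89.6 and 90.2 FPKM) and Tmsb4x (174 and 167 against 49.5 and 51.4 FPKM, sgNAT10 before WT) were 2-fold higher; they were picked after their values were seen. At that level of abundance Spp1, the secreted phosphoprotein osteopontin, had 521 and 503 FPKM in sgNAT10, against 57.1 and 56.6 FPKM in WT. Rack1, a ribosome-bound scaffold, had 121 and 117 FPKM in sgNAT10, against 256 and 253 FPKM in WT, and Ahnak, a giant membrane scaffold, had 85.6 and 71.9 FPKM in the sgNAT10 libraries and 161 and 169.6 FPKM in the WT libraries. Ier3, an early response gene, had 103 and 93.4 FPKM in the sgNAT10 libraries and 297 and 306 FPKM in the WT libraries.

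Genes that dampen signals rose in part. Of 5 tested RGS proteins, which switch off G proteins, 4 rose and 1 fell. Rgs16 had 15.01 and 13.5 FPKM in sgNAT10, against 0.429 and 0.629 FPKM in WT, and Rgs20 had 4.16 and 4.68 FPKM in sgNAT10, against 0.183 and 0.206 FPKM in WT. Rgs10 had 1.53 and 1.74 FPKM in the sgNAT10 libraries and 4.88 and 4.84 FPKM in the WT libraries. Of 8 tested phosphodiesterases, which break down cyclic nucleotides, 6 rose and none fell, Pde4b most with 3.96 and 3.84 FPKM in sgNAT10, against 1.19 and 1.33 FPKM in WT. Adcy1, which makes cyclic AMP, had 2.69 and 2.94 FPKM in sgNAT10, against 0.00365 and 0.0174 FPKM in WT, and Adcy3 had 0.734 and 0.655 FPKM in sgNAT10, against 2.81 and 2.25 FPKM in WT. Dual specificity phosphatases, which switch off MAP kinases, went both ways with 7 of 18 higher and 9 lower. Dusp7 had 27.7 and 28.8 against 11.8 and 11.2 FPKM and Dusp9 had 6.18 and 7.15 against 30.95 and 30.2 FPKM, sgNAT10 before WT. Of 21 tested G protein-coupled receptors named Gpr or Adgr 13 rose and 2 fell (4 after scaling to equal medians), led by the adhesion receptor Adgrg6 with 11.2 and 11.6 FPKM in sgNAT10, against 1.62 and 1.68 FPKM in WT.

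Targets of the glucocorticoid receptor all passed the test, 5 higher and 6 lower of 11, so the list did not move one way. Errfi1, which restrains the EGF receptor, had 52.7 and 52.5 FPKM in sgNAT10, against 9.88 and 8.71 FPKM in WT, whereas the crosslinking enzyme Tgm2 had 1.47 and 1.78 FPKM in sgNAT10, against 11.5 and 10.8 FPKM in WT, and the metal-binding protein gene Mt1 had 32.04 and 31.6 FPKM in sgNAT10, against 66.96 and 68.96 FPKM in WT. NF-kB subunits and targets were near the background with 4 of 16 higher and 5 lower. The number lower was 3 with DESeq2 and 7 after scaling to equal quantiles or medians. Among apoptosis regulators 12 of 29 rose and 6 fell. Bid, which carries the death signal to mitochondria, had 3.19 and 3.3 FPKM in sgNAT10, against 9.77 and 8.96 FPKM in WT. Cflar and Bcl2, inhibitors of cell death, had 11.9 and 12.1 against 4.95 and 5.22 FPKM and 3.86 and 3.95 against 1.77 and 1.83 FPKM, sgNAT10 before WT. Bid fell and both inhibitors rose.

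The response to low oxygen leaned down. Of 25 tested hypoxia genes 18 fell and 5 rose, 7 of them 2-fold lower, with a median log2 fold change of -0.40, which was -0.63 with a pseudocount of 0.1 and -0.65 with edgeR or DESeq2. Car9, a surface carbonic anhydrase widely used as a hypoxia marker, had 2.02 and 2.29 FPKM in sgNAT10, against 17.1 and 19.5 FPKM in WT. Ndrg1 had 7.75 and 8.78 FPKM in sgNAT10, against 22.9 and 25.2 FPKM in WT, and Ddit4, an inhibitor of mTORC1, had 15.5 and 16.5 FPKM in sgNAT10, against 41.2 and 43.7 FPKM in WT. The genotypes were apart in these 3 genes, as they were in Hif1a itself, with sgNAT10 lower. Ak4, a mitochondrial adenylate kinase, rose with 81.8 and 85.1 FPKM in sgNAT10, against 32.3 and 32.5 FPKM in WT.

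Lipid genes split by pathway. Of 21 tested genes of cholesterol synthesis and uptake 16 rose and 3 fell, none by 2-fold (median 0.32). Insig1, the sensor that holds back the pathway's master factor, had 36.9 and 38.6 FPKM in sgNAT10, against 21.1 and 20.3 FPKM in WT, and Ebp, a sterol isomerase, had 3.99 and 3.62 FPKM in sgNAT10, against 8.398 and 8.203 FPKM in WT. Of 15 tested genes of fatty acid synthesis 11 fell and 2 rose (median -0.33). Fads3, a desaturase relative, had 3.85 and 4.11 FPKM in sgNAT10, against 15.6 and 15.4 FPKM in WT, and Scd2, a stearoyl-CoA desaturase, had 138 and 134 FPKM in sgNAT10, against 239 and 247 FPKM in WT. Srebf1, which drives fatty acid genes, had 4.501 and 4.598 FPKM in the sgNAT10 libraries and 9.69 and 9.71 FPKM in the WT libraries. Fasn, the synthase itself, had 34.7 and 31.4 against 34.5 and 34.4 FPKM, sgNAT10 before WT, and did not pass (log2 fold change -0.06). Without WT replicate 1 or WT replicate 2, after either scaling, and with edgeR or DESeq2, only 1 of these genes was called higher. Fatty acid oxidation did not move one way, with 8 of 20 tested genes higher and 8 lower, 1 of them 2-fold higher. Its median was 0.03, or -0.05 and -0.03 after scaling to equal quantiles and medians. Cpt1a, the gate for fatty acid entry into mitochondria, had 6.397 and 6.23 FPKM in sgNAT10, against 1.57 and 1.86 FPKM in WT.

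Redox and carbonyl enzymes changed member by member. Of 19 tested NRF2 targets 9 rose and 5 fell, a split that was 7 higher and 8 lower after scaling to equal medians. Nqo1, a quinone reductase, had 20.8 and 20.1 FPKM in sgNAT10, against 5.26 and 4.698 FPKM in WT, while Gsr, glutathione reductase, had 20.5 and 20.97 FPKM in sgNAT10, against 41.6 and 41.5 FPKM in WT, and Hmox1, heme oxygenase, had 36.6 and 38.3 FPKM in sgNAT10, against 69.9 and 70.8 FPKM in WT. Of 11 tested aldo-keto and carbonyl reductases 8 rose and 2 fell. Akr1c18, a progesterone-reducing enzyme, had 3.51 and 3.697 FPKM in the sgNAT10 libraries and 0.0378 and 0.0902 FPKM in the WT libraries, and Cbr1, a carbonyl reductase, had 5.11 and 4.31 FPKM in the sgNAT10 libraries and 13.7 and 11.5 FPKM in the WT libraries; the first rose and the second fell. Without WT replicate 1, 5 reductases were called higher and 3 NRF2 targets lower, and 3 NRF2 targets were also called lower without sgNAT10 replicate 2. Without WT replicate 1, WT replicate 2 or sgNAT10 replicate 2, 1 reductase was called lower. Close paralogs in this family may share reads, and how the counting split such reads is not given in the sources used here. Of 10 tested aldehyde dehydrogenases 2 rose and 6 fell, with the mitochondrial folate enzyme Aldh1l2 at 2.98 and 2.98 FPKM in sgNAT10, against 0.213 and 0.254 FPKM in WT, and Aldh3b1 at 0.124 and 0.0331 FPKM in sgNAT10, against 2.68 and 2.58 FPKM in WT. Of 8 tested glutathione S-transferases 4 rose and 3 fell, Mgst3, a membrane-bound member, most with 10.9 and 9.604 FPKM in sgNAT10, against 2.45 and 1.49 FPKM in WT. The carbonic anhydrase Car6 had 3.96 and 4.27 FPKM in sgNAT10, against 0.101 and 0.08995 FPKM in WT, opposite to Car9.

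Of 135 tested solute carriers 36 rose and 57 fell, and 7.41% were 2-fold changed, a share near the 7.24% of all genes. Slc2a3, a glucose transporter, had 1.59 and 1.71 FPKM in sgNAT10, against 6.06 and 6.42 FPKM in WT. Abca1, which exports cholesterol, had 14.9 and 14.9 FPKM in the sgNAT10 libraries and 3.52 and 3.43 FPKM in the WT libraries, and was the one 2-fold changed member of 19 tested ABC transporters.

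Housekeeping lists moved in small steps. Of 20 tested cytosolic aminoacyl-tRNA synthetases, which load transfer RNA with amino acids, 13 fell and 2 rose, none by 2-fold, with a median of -0.19. Sars had 31.6 and 31.2 FPKM in sgNAT10, against 48.4 and 49.1 FPKM in WT. Among 52 tested splicing factors 21 fell and 9 rose, again none by 2-fold. After scaling to equal quantiles and medians 31 fell under either, and 6 and 7 rose. The proteasome was balanced with 13 higher and 13 lower of 36. Its interferon-inducible subunit Psmb10 had 4.73 and 4.33 FPKM in sgNAT10, against 15.1 and 13.4 FPKM in WT, and was the one 2-fold member. Lysosomal genes had 10 of 34 higher and 12 lower, or 9 higher and 15 lower after scaling to equal quantiles or medians. Ctsz, a cathepsin, was the one 2-fold member with 0.282 and 0.301 FPKM in sgNAT10, against 33.7 and 34.8 FPKM in WT. The unfolded protein response had 9 of 22 higher and 4 lower (8 higher against 7 and 6 lower after scaling to equal quantiles and medians), with Sdf2l1, a helper of the chaperone BiP, at 41.5 and 41.6 FPKM in sgNAT10, against 19.1 and 19.3 FPKM in WT. Without WT replicate 1, 7 proteasome genes were called higher and 5 autophagy genes lower. Scaling to equal quantiles or medians gave 7 and 8 proteasome genes higher and 16 lower under either, so the balance did not hold under scaling. Autophagy genes (10 of 33 higher, 8 lower) lay below the background share of called genes.

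Membrane traffic and motor genes held single large changes. Of 38 tested Rab GTPases, which direct vesicle transport, 20 rose and 5 fell. Rab32, a regulator of lysosome-related organelles, had 17.2 and 16.6 FPKM in sgNAT10, against 2.4 and 2.28 FPKM in WT, and Rab3b, a Rab of secretory vesicles, had 0.0494 and 0.0176 FPKM in sgNAT10, against 3.32 and 3.06 FPKM in WT. Kinesins (13 of 26 higher, 7 lower) had 1 member past 2-fold, Kif21b, with 0.738 and 0.677 FPKM in sgNAT10, against 2.79 and 3.21 FPKM in WT. Of 20 tested myosins 9 rose and 5 fell: Myo1d, a motor that sets left-right asymmetry in flies, had 5.18 and 5.32 FPKM in sgNAT10, against 1.78 and 1.65 FPKM in WT, and Myo7a, the hair cell motor, had 3.25 and 3.02 FPKM in sgNAT10, against 7.75 and 7.64 FPKM in WT. Of 12 tested tubulins 5 rose and 5 fell, with Tuba4a at 5.38 and 4.55 FPKM in sgNAT10, against 1.79 and 1.72 FPKM in WT. The counts of falls were sensitive to single libraries, with 3 Rab genes lower without sgNAT10 replicate 2 or WT replicate 1 and 2 without WT replicate 2, but 9 and 8 after scaling to equal quantiles and medians. Likewise 3 myosins were lower without sgNAT10 replicate 1, sgNAT10 replicate 2 or WT replicate 1 and 2 without WT replicate 2, which also left 4 kinesins and 3 tubulins lower. Without WT replicate 1, 3 tubulins were called higher.

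Chromatin regulators showed few 2-fold changes. Of 27 tested Polycomb genes 10 rose and 8 fell, with Rnf2, a ubiquitin ligase of the complex, 2-fold higher at 11.1 and 10.5 FPKM in sgNAT10, against 3.83 and 3.87 FPKM in WT. Of 15 tested histone lysine demethylases 3 rose and 8 fell, Kdm6b most with 6.38 and 6.34 FPKM in sgNAT10, against 11.6 and 12.4 FPKM in WT. E2F and DP factors, which drive S phase genes, had 5 of 10 higher and 4 lower with no 2-fold member. SWI/SNF remodellers (9 of 25 higher, 5 lower) and histone deacetylases with sirtuins (5 of 14 higher, 3 lower) had no 2-fold member. Fewer calls were left without single libraries: 5 Polycomb genes were lower without WT replicate 2, 2 E2F and DP factors lower without WT replicate 1, and 3 deacetylases higher when any 1 of the 4 libraries was left out. Of the remodellers 1 was lower without sgNAT10 replicate 1 or WT replicate 1, 2 without WT replicate 2, and 11 after scaling to equal quantiles or medians. Among imprinted genes Peg12 had 0.02198 and 0 FPKM in sgNAT10, against 3.39 and 3.28 FPKM in WT, and Dlk1 had 73.2 and 72.2 FPKM in sgNAT10, against 44.1 and 45.04 FPKM in WT. Rhox5, an X-linked homeobox gene, had 222 and 218 FPKM in sgNAT10, against 255 and 256 FPKM in WT. In the list of Mage, Rhox, Xlr and Prame genes, which are mostly germline genes and close copies of each other that may share reads, 6 of 9 rose and 1 fell. Magea10 was listed at 0 in both WT libraries and had 3.35 and 3.74 FPKM in sgNAT10.

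Most genes with a 2-fold change in mRNA moved the same way in ribosome footprints, which were sequenced in separate libraries of the same genotypes. Of the 553 genes that were 2-fold higher, 482 were listed in the footprint table, and in 416 of them (86.3%) both sgNAT10 libraries lay above both WT libraries. Of the 297 that were 2-fold lower, 239 were listed and 211 (88.3%) lay below. Over all genes compared, 26.0% lay above and 24.9% below. Across the 664 of these genes whose footprints averaged 1 FPKM or more, Pearson's r between the log2 fold changes was 0.929, given as a description across genes that share libraries. They were selected for a large change in mRNA, which raises r. Across all 9200 genes compared that had such footprints, r was 0.746. The most abundant 2-fold rise did not follow. Ybx1, an abundant RNA-binding protein gene, had mRNA at 1303 and 1344 FPKM in sgNAT10, against 371 and 369.9 FPKM in WT, and its footprints were 191 and 187 FPKM in sgNAT10, against 184 and 205 FPKM in WT. It was picked after its values were seen.

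**Figure D4:**
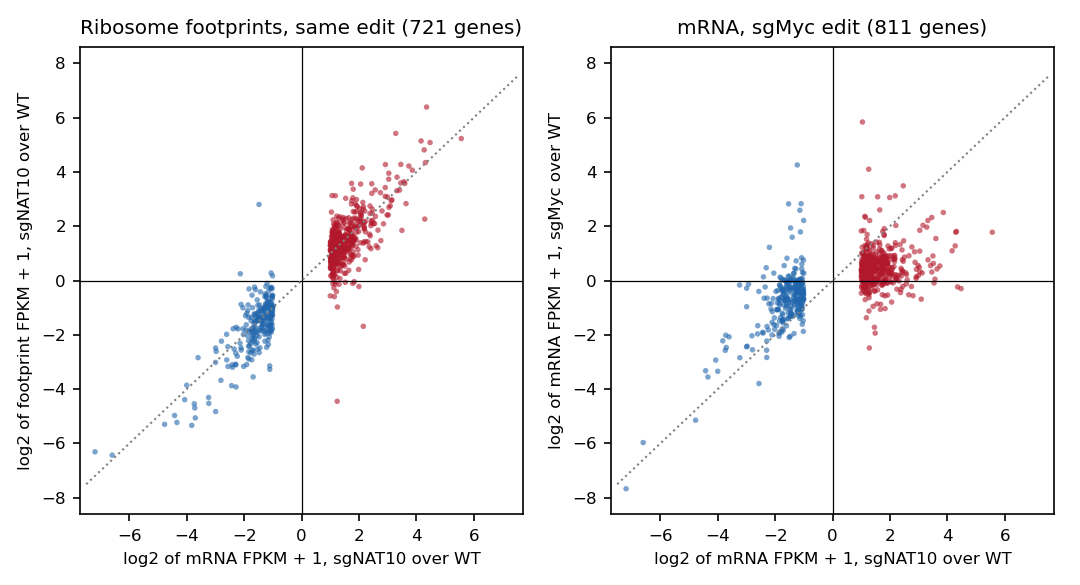
Log2 fold change of mRNA, sgNAT10 over WT (horizontal axes), of the genes past the test and 2-fold, against the log2 fold change of their ribosome footprints in sgNAT10 over WT (left) and of their mRNA in sgMyc over its own WT (right); red genes rose and blue genes fell in sgNAT10, and the dotted line marks equal change. The left cloud follows the dotted line, and the right cloud is flatter, above all for the genes that rose.

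The sgMyc libraries, with WT libraries of their own in a table normalized separately, were compared with the same genes. Of 281 of the 2-fold lower genes that were listed there, 202 (71.9%) lay below WT in every sgMyc library, and 14 lay above. Of 530 of the 2-fold higher genes 293 (55.3%) lay above WT and 38 below. Over all genes 18.0% lay above and 21.0% below. The difference between the shares was not tested. The sgMyc libraries were not alike in all of these genes, since Mmp2 had 8.833 and 9.842 FPKM in replicates 1 and 2 and 0.531 FPKM in replicate 3.

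Some genes were close to silent in either genotype. In 20 genes both sgNAT10 libraries were under 0.5 FPKM and both WT libraries at 5 FPKM or above, and in 16 genes it was the other way round. The 20 lost genes held 10 of the 12 largest falls together with the tetraspanin Tspan6 (0.113 and 0.181 FPKM in sgNAT10, against 9.86 and 9.65 FPKM in WT), the iron reductase Steap3 (0.0203 and 0.0325 FPKM in sgNAT10, against 5.32 and 5.16 FPKM in WT), the procollagen enhancer Pcolce2 (0.0502 and 0.0134 FPKM in sgNAT10, against 7.16 and 7.31 FPKM in WT) and the lipid raft protein gene Rftn1 (0 and 0.0275 FPKM in sgNAT10, against 7.499 and 6.47 FPKM in WT). Of 19 listed in the footprint table, 19 were lower there. In the sgMyc set 18 of 20 were lower in every sgMyc library than in every WT library, and the exceptions were Mfng and Mmp2. The 16 gained genes held Fgf10, Sod3, Fhl1, Sema3a, Dkk2, Cdh26 and Hlf, the sulfide oxidase Sqor (10.2 and 10.2 FPKM in sgNAT10, against 0.112 and 0.12 FPKM in WT) and the elastic fibre protein gene Fbln5 (8.61 and 7.93 FPKM in sgNAT10, against 0.225 and 0.221 FPKM in WT). Among 15 that had footprints listed, 14 were higher, and in the sgMyc set 12 of 16 were higher and none lower without overlap.

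**Figure D5:**
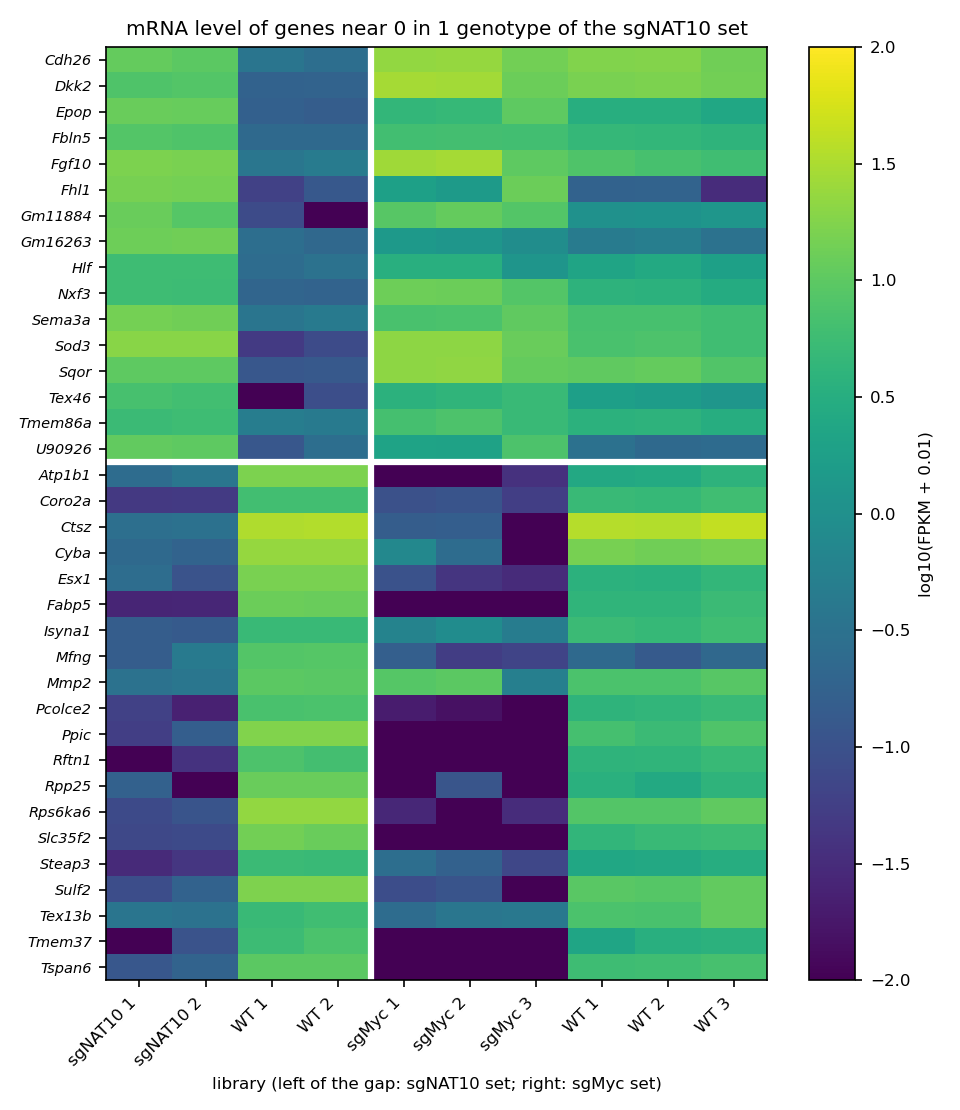
Level as log10(FPKM + 0.01), in colour, of the 16 genes gained (top block) and the 20 genes lost (bottom block) in sgNAT10, one per row, in the sgNAT10 and WT libraries of this comparison (left of the gap) and in the sgMyc and WT libraries of the other set (right). The lost genes are low in both edited genotypes apart from Mmp2 in sgMyc replicates 1 and 2, and most gained genes are bright in the WT libraries of the sgMyc set as well, although dark in those of the sgNAT10 set.

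By kind of gene, 9893 of those compared code for proteins, and 7.34% of these were 2-fold changed (486 higher, 240 lower). Long intergenic RNA genes had 12 higher and 16 lower of 226 (12.4%), and processed pseudogenes had 2 higher and 5 lower of 374 (1.87%). Names of 92.3% of the genes matched a RefSeq gene and so a chromosome. The share of 2-fold higher genes ran from 2.58% on chromosome 11 to 8.9% on chromosome 4, and that of 2-fold lower genes from 1.19% on chromosome 13 to 4.8% on chromosome 19. Chromosome copy number was not measured, so its part in these shares was not tested.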

How the data were processed

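The 4 libraries are total RNA of TC1 cells extracted with TRIzol, 2 of sgNAT10 and 2 of WT, per the labels' protocols. The authors deposited 1 table of FPKM per experiment. Trim Galore, FastQC, Bowtie2, featureCounts and the mm10 build are named in the submitters' processing notes, and their settings and the handling of reads shared by paralogs or strands are not given in the sources used here. Deposited fold changes and p-values were not used.

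Genes that averaged 1 FPKM or more over the 4 libraries were fitted with limma 3.58.1 (R 4.3.3) on log2(FPKM + 1), with a mean trend in the variance, Benjamini-Hochberg adjustment over all 11735 genes and a threshold of 0.05. The FPKM values gave back whole read numbers for 99.9% of the genes, within a relative tolerance of 1e-09. Those numbers are the smallest whole ones that keep the ratios between the 4 libraries. A factor shared by all 4 is lost, so recovered reads are lower bounds. They served for depth and for the alternatives with edgeR 4.0.16 and DESeq2 1.42.0. The sgMyc table, deposited by the authors, also holds whole-number read counts per gene, which were not used for a test. Between the libraries of 1 genotype, a chi-square of the recovered reads passed its 0.1% limit in 0.707% of 15127 genes in WT and 1.25% of 14370 genes in sgNAT10.

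The fit was tested on simulated data. Of 50 genes changed by each fold it found 3 at 1.2-fold, 30 at 1.5-fold, 46 at 2-fold and 48 at 4-fold. It called 16 of 11532 unchanged genes, among 11732 simulated. Every simulated gene had the same variation beyond that of counting reads. Far fewer genes changed than the 63.3% that passed in the data, so these rates do not carry over to the data. Deviations of libraries with the same number correlated at 0.0079, so the numbers were not taken as pairs.

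The text names Nat10, the 12 largest rises and 12 largest falls (past the test, no overlap between genotypes, 5 FPKM or more in the genotype with the higher mean), up to 4 members of a list in each direction by size of change, and transcription factors past the test and 2-fold. Any other gene was chosen after its values were seen. The comparison, its gene lists and the alternatives were chosen with earlier results of these data known, and the name patterns of some families were narrowed after values were seen, to remove genes that only share a name. Lists are described by counts and medians beside those of all genes, with no test of a list. Footprints and sgMyc values are given with no test. Promoter windows come from RefSeq (GRCm38.p6), which held 19 of the 24 genes with the largest changes. A few genes are not reported here.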

Additional observations from a re-analysis of the deposited data

How the results depend on the processing

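Over 13 alternatives the count of genes higher in sgNAT10 lay between 2769 and 4614 (3960 as reported) and that of genes lower between 2327 and 4657 (3471). Leaving out 1 library gave 3237 to 3651 higher and 2768 to 3205 lower, with 543 to 592 genes 2-fold higher and 295 to 315 genes 2-fold lower; the lone sample was then assumed to vary like the other genotype. Counts of 2-fold changes depend on the scale: edgeR and DESeq2 on recovered reads, which add no 1 FPKM, gave 1181 and 1078 genes 2-fold higher and 1154 and 1019 genes 2-fold lower, a pseudocount of 0.1 gave 495 lower, and a minimum mean of 5 FPKM, with fewer genes tested, gave 353 higher and 130 lower. Of the 850 genes past 2-fold, 800 to 850 were past it in the same direction under the other settings, and 481 with the minimum of 5 FPKM. Scaling to equal medians or quantiles moved the median of all genes to -0.04 and -0.03, with 3412 and 3464 genes higher against 4097 and 3991 lower. With the replicate block, 3831 genes were higher and 3398 lower, 555 and 301 of them 2-fold; the replicate numbers pair nothing in the labels, and no named gene lost its call. Among named genes, the 203 that passed kept direction and call in every setting that tested them, except Col3a1, which lost its call without sgNAT10 replicate 1, WT replicate 1 or WT replicate 2, and Fasn, Il17ra, Il1rap, S100a4 and Gm23935 passed in some settings. With the minimum of 5 FPKM the medians of 10 lists changed sign, with fewer members tested. The 3 of them that had lain at least 0.1 from 0 moved to 0.09 for glucocorticoid receptor targets, 0.01 for histone lysine demethylases and -0.13 for netrins, slits and their receptors, and the others to between -0.09 (WNT pathway) and 0.34 (Hedgehog pathway). Scaling to equal quantiles or medians changed the sign of 8 and 9 list medians, none of which had lain that far from 0. Genes with few reads in a genotype limit the precision of its level.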

Other observations

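The WT libraries of the sgMyc set were not the same as those of the sgNAT10 set in genes that separate sgNAT10 from WT. Of the 16 genes that were under 0.5 FPKM in both WT libraries of the sgNAT10 set and at 5 FPKM or above in sgNAT10, 13 were at 1 FPKM or above in all 3 WT libraries of the sgMyc set, and 2 were under 0.5 FPKM in all 3. The tables were normalized separately, so these levels are set side by side and not tested. Cdh26 had 0.349 and 0.271 FPKM in WT of the sgNAT10 set and 17.2, 18.2 and 13.7 FPKM in WT of the sgMyc set. Of the 20 genes lost in sgNAT10, 19 were at 1 FPKM or above in all 3 WT libraries of the sgMyc set, Mfng being the exception. In the sgMyc cells themselves, Mmp2 and Fhl1 separated replicate 3 from the other libraries: Mmp2 had 8.83, 9.84 and 0.531 FPKM in sgMyc, against 7.44, 7.48 and 9.11 FPKM in its WT, and Fhl1 had 1.84, 1.49 and 12.8 FPKM in sgMyc, against 0.171, 0.177 and 0.0224 FPKM in its WT.

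Ybx1 was 2-fold higher in mRNA and overlapped between genotypes in footprints, and in the sgMyc set it had 502, 496 and 1013 FPKM in sgMyc, against 522, 514 and 472 FPKM in its WT. Among genes at low levels, Magea10 was listed at 0 in both WT libraries of the sgNAT10 set and had 8.15, 7.95 and 10.95 FPKM in sgMyc, against 0.286, 0.0978 and 0.0728 FPKM in its WT.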
